A study of Homo sapiens with 2 samples.

Results

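The tall peaks were the 333 regions of highest read pileup in an eCLIP experiment on NUDT21 in J-Gamma1 cells, and they made up 1.62% of the 20499 peaks in the deposited list. They were chosen by a single value of that list, the Score, which behaved as a pileup height: Scores fell on multiples of 0.228, each multiple is called a step here, and the limit of 3.8 kept peaks of 17 steps or more. J-Gamma1 is a derivative of the Jurkat line, from a T-cell leukemia (T-ALL), that lacks the signalling enzyme PLCG1, and it is 1 cell line, grown without any treatment named in the labels. The 2 samples of the series were made from these cells, 1 with a NUDT21 antibody and 1 as input, both after UV-C crosslinking on ice (254 nm, 400 mJ per dose) and a short digestion with RNase I (40 U, 5 min). The peak list of the NUDT21 antibody library was used, so every value below came from 1 library without a replicate, the input library was not analysed here, the spread between experiments could not be measured, and the intervals given cover counting error only.

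NUDT21, also known as CFIm25, is the small subunit of cleavage factor I, which sits on pre-mRNA upstream of a poly(A) site and helps to decide where the transcript is cleaved and polyadenylated. NUDT21 pairs with CPSF6 or CPSF7 and recognises the RNA letters UGUA. In eCLIP, protein and RNA are joined by UV light, the protein is pulled down, and the RNA pieces that come with it are sequenced. The height of a pileup grows with how often the protein is joined to a stretch of RNA and also with how many copies of that RNA the cell holds. Fewer RNA copies and less binding per copy cannot be told apart from a pileup alone, and no RNA abundance was measured in the files used here.

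The sequences that carried the results were of several kinds. Peaks with GAAGAA, 3 coding and 1 in a noncoding RNA, are shown first, with GAAGAA in capitals, because this purine motif was denser in tall coding peaks than in lower ones. They are the peak in exon 4 of 6 of RPS24, a ribosomal protein of the small subunit (hg38, chr10:78037197-78037356, plus strand, Score 8.20), the peak in exon 10 of 12 of the chaperone HSP90AB1 (chr6:44252171-44252262, plus strand, Score 7.29), the peak in the last exon of ARGLU1, an arginine and glutamate rich nuclear protein (chr13:106544027-106544149, minus strand, Score 6.15), and the highest peak of the series, in the nuclear long noncoding RNA MALAT1 (chr11:65499647-65499813, plus strand, Score 10.25).
RPS24: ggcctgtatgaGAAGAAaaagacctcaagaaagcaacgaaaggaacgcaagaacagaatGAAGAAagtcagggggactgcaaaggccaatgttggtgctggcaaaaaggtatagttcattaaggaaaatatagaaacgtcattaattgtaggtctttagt
HSP90AB1: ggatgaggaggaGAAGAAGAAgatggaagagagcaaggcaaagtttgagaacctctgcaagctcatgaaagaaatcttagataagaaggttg
ARGLU1: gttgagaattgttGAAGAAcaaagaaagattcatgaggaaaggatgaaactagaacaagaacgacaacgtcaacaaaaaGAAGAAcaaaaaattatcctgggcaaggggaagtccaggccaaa
MALAT1: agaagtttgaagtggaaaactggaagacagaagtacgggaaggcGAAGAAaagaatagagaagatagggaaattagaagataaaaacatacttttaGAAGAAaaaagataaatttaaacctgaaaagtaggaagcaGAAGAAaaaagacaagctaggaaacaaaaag

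Coding peaks that ran out of their exon are shown next, with the bases past the end of the exon in capitals. They are the peak at exon 4 of 5 of HMGB2, a chromatin protein of the high mobility group (chr4:173332788-173332897, minus strand, Score 8.88, 33 nt past the exon end), and the peak at exon 2 of 14 of the nucleolar protein nucleolin, NCL (chr2:231463178-231463241, minus strand, Score 7.97, 22 nt past it).
HMGB2: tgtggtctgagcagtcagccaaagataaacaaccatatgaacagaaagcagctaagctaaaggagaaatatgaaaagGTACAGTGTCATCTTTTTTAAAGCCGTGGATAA
NCL: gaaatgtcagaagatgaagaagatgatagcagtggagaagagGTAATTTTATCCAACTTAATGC

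For 3'UTR peaks the UGUA copy nearest the 5' side of the peak is shown in capitals within a window of 30 nt, as the motif that NUDT21 is known for. In HSP90B1 this copy overlaps the stop codon, which is counted as coding here, so it is in the peak but not within the 3'UTR. UGUA was present in 22 of the 48 tall 3'UTR peaks (45.8%, interval 31.4 to 60.8), against 43.4% at 9 to 16 steps, and the 3'UTR peaks of PTMA and RPS24 at 7.74 had none. The windows lie at chr4:173331955-173331984 (HMGB2, minus strand), chr1:25900947-25900976 (the microtubule regulator STMN1, minus strand), chr17:76734445-76734474 (the splicing factor SRSF2, minus strand), chr9:98015586-98015615 (the histone chaperone ANP32B, plus strand) and chr12:103947645-103947674 (the chaperone HSP90B1, plus strand).
HMGB2: tcagtataaaaacTGTAcagatttttgtat
STMN1: aatatccaaagacTGTActggccagtgtca
SRSF2: ccgattgctcctgTGTAaagatgccttgtc
ANP32B: cgccttccttccaTGTAgtccctcttggta
HSP90B1: gaaaaagatgaatTGTAaattatactctca

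Among the tall peaks, Score ran from 3.87 to 10.25 with a median of 4.55, which corresponds to 17 to 45 steps. Fold enrichment, the deposited ratio of the pileup to a local background, ran from 1.68 to 7.14 with a median of 2.99. The median was 2.78 in the 3202 peaks of 9 to 16 steps and 2.21 at 5 to 8 steps. The upper quartile was 4.05 in tall peaks and 3.06 at 9 to 16 steps. If the ratio was formed as (Score + 1) over (background + 1), the median background under tall peaks was 0.999, against 0.191 under peaks of 9 to 16 steps. This implied background is computed from the Score that chose the peaks, so the difference is not a separate result. The deposited FDR was below 0.05 in 19 of the 333 tall peaks, and these were all of the 19 such peaks in the list (0.0927% of it), whereas 277 tall peaks (83.2%) had an FDR of 1. The lowest FDR belonged to peaks in LUC7L3 (0.0016), HSP90B1 and SRRM1 (both 0.0017) and RPS24 (0.00204). The limit cut through a continuous ladder: 67 peaks lay just inside it at a Score of 3.87 with a median fold of 3.0, and 89 lay just outside at 3.64 with a median fold of 2.92.

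To see which transcripts carried the tallest pileups, tall peaks were counted by gene. They lay in 129 genes. Of these, 78 genes held 1 tall peak, 51 held 2 or more and 21 held 5 or more, so that 5 genes accounted for 68 tall peaks (20.4%) and 20 genes for 164 (49.2%). MALAT1 held 17, HSP90B1 15, and NUCB2, MKI67 and SON 12 each. They were followed by NUCKS1 and SRRM1 with 9, SRRM2 with 8, and HSP90AA1, NAP1L1, ANP32B and LUC7L3 with 7. In 6 genes with at least 4 tall peaks no lower peak was listed at all: MALAT1, HSP90B1, HSP90AA1, HSP90AB1, HMGB2 and NCL. In others the tall peaks stood among many lower ones, as in MKI67 (12 of 40 peaks), SRSF11 (5 of 22) and DNMT1 (4 of 23). Per gene, 123 of the 4644 genes with an exonic peak had a tall exonic one (2.65%), and the gene groups below are read against that share.

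**Figure D1:**
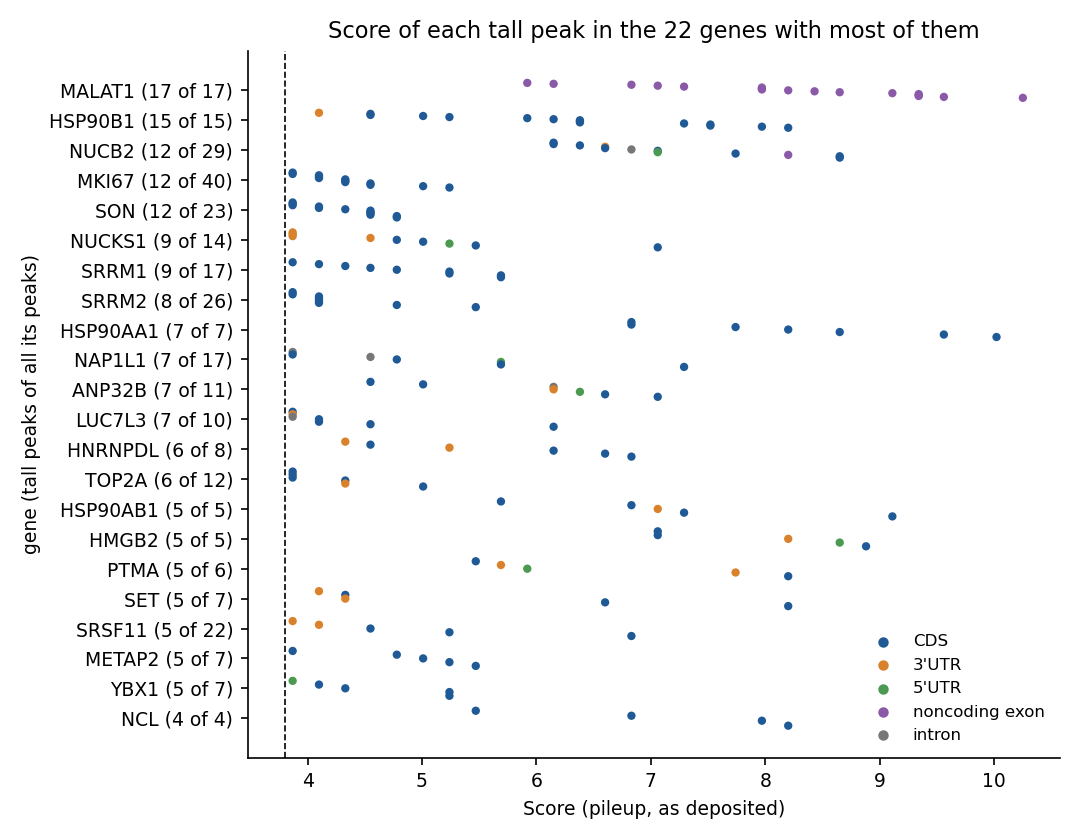
Each point is 1 tall peak, placed by its Score (x axis, the deposited pileup value, dashed line at the limit of 3.8) in the 22 genes with most tall peaks (y axis, tall peaks of all peaks of the gene) and coloured by region with coding sequence taken first. MALAT1, HSP90AA1 and HMGB2 lie at 5.92 or above, while the 12 peaks of SON and the 12 of MKI67 lie between 3.87 and 5.24.

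Protein folding chaperones held 32 tall peaks, in 7 of the 19 members with an exonic peak. The cytosolic HSP90 genes reached the highest Scores of any protein-coding gene. HSP90AA1 had Scores of 10.02, 9.56, 8.65, 8.20, 7.74, 6.83 and 6.83, all in coding exons. HSP90AB1 had 9.11, 7.29, 7.06, 6.83 and 5.69, of which the peak at 7.06 lay in the 3'UTR. Their counterpart in the endoplasmic reticulum, HSP90B1, had 15 tall peaks between 4.10 and 8.20 over 14 of its 18 exons, including the highest fold enrichment among tall peaks (7.14, in exon 2 at a Score of 7.52). The lumenal chaperones CALR (6.38, 3'UTR) and HSPA5 (4.78 and 4.78, coding) and the folding proteins PDIA3 (4.10) and HSPD1 (3.87) had 1 or 2 tall peaks each. The chaperones with the tallest peaks were thus those of the HSP90 family, with all of its 3 listed members above the limit. HSP90AA1 and HSP90AB1 are close in sequence and have processed copies elsewhere in the genome, and how reads that matched several places were counted was not given in the sources used here. Near-identical copies also exist for HMGB1, HMGB2, PTMA, NCL and RPS24, whose heights are uncertain in the same way.

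Acidic histone chaperones and high mobility group proteins, which handle histones or bend DNA, had a tall exonic peak in 11 of 21 members, which held 43 tall peaks. All 5 peaks of HMGB2 were tall, at 8.88, 7.06 and 7.06 in the coding sequence, 8.65 in a 5'UTR and 8.20 in the 3'UTR. HMGB1 had 8.88 in its 5'UTR, 7.74 in the coding sequence and 5.01 in the 3'UTR. NCL had 8.20, 7.97, 6.83 and 5.47, all coding, SET reached 8.20, and prothymosin alpha, PTMA, reached 8.20 in the coding sequence and 7.74 in the 3'UTR. NAP1L1 and ANP32B each had 7 tall peaks, up to 7.29 and 7.06, and DEK reached 4.78. NPM1, CHAF1A and SUPT16H had 1 tall peak each, at 4.33, and NASP had 1 in an intron, at 3.87, which is not counted among the 11 genes or the 43 peaks. HMGA1, of the same group, had 1 peak, at 2.51.

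SR splicing factors, which bind exonic purine-rich splicing enhancers through RNA recognition motifs and carry arginine-serine repeats, had a tall peak in 4 of 8 members: SRSF11 (6.83, coding), SRSF2 (6.83, 3'UTR), SRSF1 (5.47) and SRSF5 (4.55). Related arginine-serine proteins of nuclear speckles had one in 10 of 33 members, which held 46 tall peaks, the largest number of any of the lists. RBM39, another member, had 1 tall peak, in an intron (3.87). LUC7L3 and ARGLU1 led with 6.15, SRRM1 had 9 tall peaks over 9 of its 17 exons up to 5.69, SRRM2 reached 5.47, and the 12 of SON stood between 3.87 and 4.78. In SRRM1, 3 of the 9 tall peaks had an FDR below 0.05, the most of any gene. PNN, a speckle protein outside the list, had 3 tall peaks up to 5.47.

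The remaining lists held fewer. Among the hnRNP proteins 3 of 15 members had a tall peak, led by HNRNPDL (6.83), and among other messenger ribonucleoprotein components 4 of 18, led by YBX1 (5.24) and SFPQ (5.01). Ribosomal proteins had exonic peaks in only 10 genes, and 4 of these had a tall one: RPS24 (8.20 coding, 7.74 in the 3'UTR), RPL5 (5.47), RPL22 (4.33) and RPL32 (4.10). Translation factors had one in 4 of 21 genes and DNA replication and methylation genes in 3 of 16, namely DNMT1 (5.69), TOP1 and TOP2A (both 5.01). Chromatin remodellers and lysine methyltransferases had one in 2 of 30 (CHD4 at 4.55 and SMARCC1 at 4.33) and DEAD and DEAH box helicases in 1 of 26 (DDX5 at 4.10), shares of 6.67% (interval 0.818 to 22.1) and 3.85% (0.0973 to 19.6) that included the 2.65% over all genes. Together the 13 lists covered 57 of the 129 genes and 184 of the 333 tall peaks (55.3%), and held 245 of the 4644 genes with an exonic peak. The lists were chosen with earlier results of these data known, so this coverage follows in part from that choice and is not a result about the tall peaks.

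No tall exonic peak lay in the 14 cleavage and polyadenylation factors or in the 14 ubiquitin-conjugating E2 enzymes with exonic peaks, and with 14 genes a share of up to 23.2% was within the interval. The highest peak of NUDT21 itself had a Score of 2.73, in its coding sequence, that of CPSF7 2.28, and CPSF6 had 25 peaks with 1 tall one, at 4.10, across the end of an exon. The E2 gene UBE2D3 had 12 peaks of at most 2.05, UBE2N 2 of at most 1.59 and UBE2J1 1 at 1.59. MYC had 1 peak, just under the limit, at 3.42, CDK1 1 at 1.82, and PCNA none. Of the markers of the T lineage, 5 of 17 had an exonic peak, CD3E of the T-cell receptor complex had the only tall one (4.33, 3'UTR), PTPRC reached 2.96 and TCF7 3.42, and the other 12, among them LCK and CD3D, had none. None of the 16 markers of B, myeloid, erythroid or epithelial cells had an exonic peak.

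Long exons and many short ones gave different layouts. In MKI67, a nuclear protein of dividing cells that coats mitotic chromosomes, 10 of the 12 tall peaks lay in the single exon 13, which is 6845 nt long. SON had 10 of 12 in exon 3 (5916 nt) and SRRM2 7 of 8 in exon 11 (6701 nt). In NUCB2, a calcium-binding protein of the Golgi, the 12 tall peaks had Scores of 6.15 to 8.65, 8 of them in 8 different coding exons, and the gene had 17 lower peaks besides. METAP2, which trims the first methionine from new proteins, had 5.47, 5.24, 5.01, 4.78 and 3.87, the RNA-binding protein SSB, also known as La, 5.01, 5.01, 4.78 and 3.87, and the nucleolar protein NOP58 4.78, 4.55, 4.33 and 4.10. Neighbouring tall peaks of a gene were 914 nt apart in the genome at the median, over 202 pairs, and 21 pairs were within 100 nt.

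MALAT1 showed how tall peaks were laid out in a single transcript. Its 17 peaks, all tall, had Scores of 5.92 to 10.25 (median 8.20) and covered 2737 nt within a 6806-nt stretch of the 10434-nt transcript, with no peak near either end of it. Fold enrichment was low for such heights, at 1.68 to 3.85, with implied backgrounds of 1.63 to 5.00, and the FDR was 1 in all. Adenine made up 35.3% of the letters under the peaks and 26.8% of the rest of the transcript. UGUA was found 13 times in 7 of the 17 peaks, 4.75 per kb (interval 2.53 to 8.12), and 4.16 per kb (2.84 to 5.87) in the rest, and 5 of the 13 copies were in the 443-nt peak at chr11:65503560-65504002 (Score 9.56), while the highest peak, printed above, had none. The list had no strand, and 16 of the 17 peaks also overlapped TALAM1, annotated on the opposite strand.

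**Figure D2:**
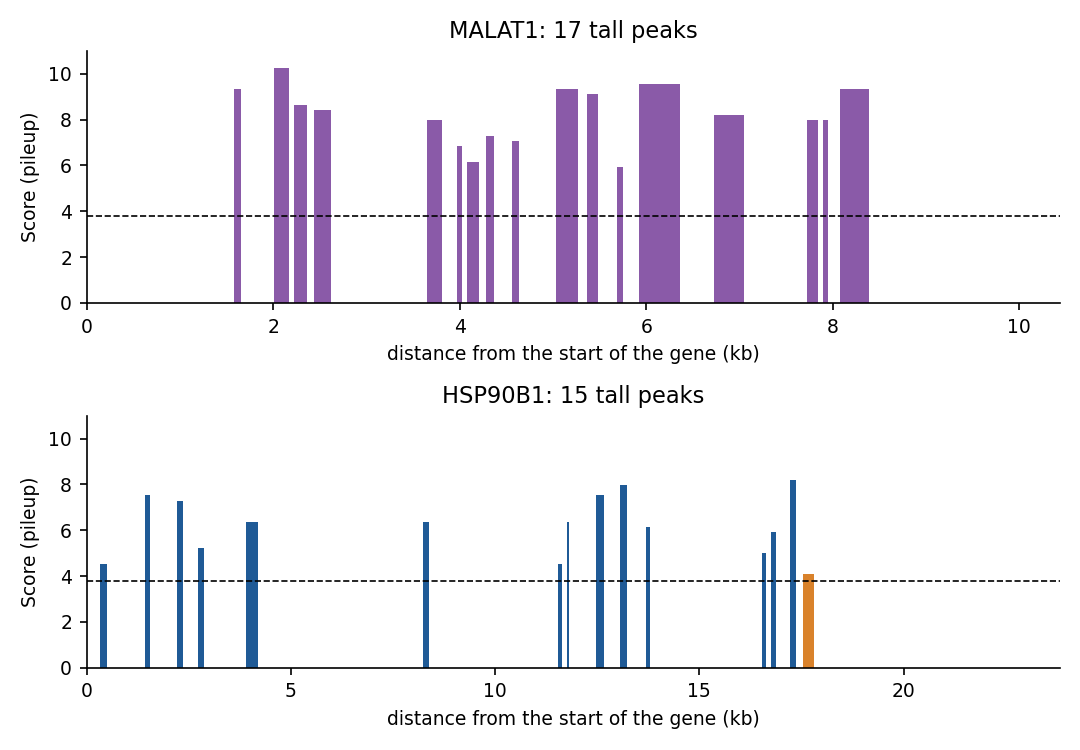
Score (y axis, deposited pileup value) of the tall peaks of MALAT1 and HSP90B1 against the distance from the start of the gene (x axis, kb), with bars as wide as the peaks, noncoding exon in purple, coding sequence in blue and 3'UTR in orange. The 17 MALAT1 peaks reach 5.92 to 10.25, and the 15 HSP90B1 peaks are spread over its exons with the single 3'UTR peak, at 4.10, the lowest.

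Next, the regions of the tall peaks were compared with those of lower peaks. With UTRs taken before coding sequence, 161 tall peaks (48.3%, interval 42.9 to 53.9) had their midpoint in coding sequence, 118 (35.4%, 30.3 to 40.8) in a 3'UTR, 20 (6.01%) in a 5'UTR, 20 in a noncoding exon, 12 (3.60%) in an intron, 1 between genes and 1 on a sequence not placed within a chromosome. This split depended on the order: 70 of the 118 3'UTR peaks (59.3%) were also coding in another transcript of the gene, as in HSP90AA1, where short transcripts place a 3'UTR over exons that are coding in the main one. With coding sequence first, 238 (71.5%, 66.3 to 76.3) were coding and 48 (14.4%) lay in 3'UTRs. In that order the coding share was 68.2% at 9 to 16 steps and 54.4% at 5 to 8, and intron peaks made up 10.7% at 5 to 8 steps, 5.22% at 9 to 16 and 3.60% of tall peaks. Thus tall peaks did not differ in coding share from the class just below beyond the counting interval, and did from the peaks of 5 to 8 steps.

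**Figure D3:**
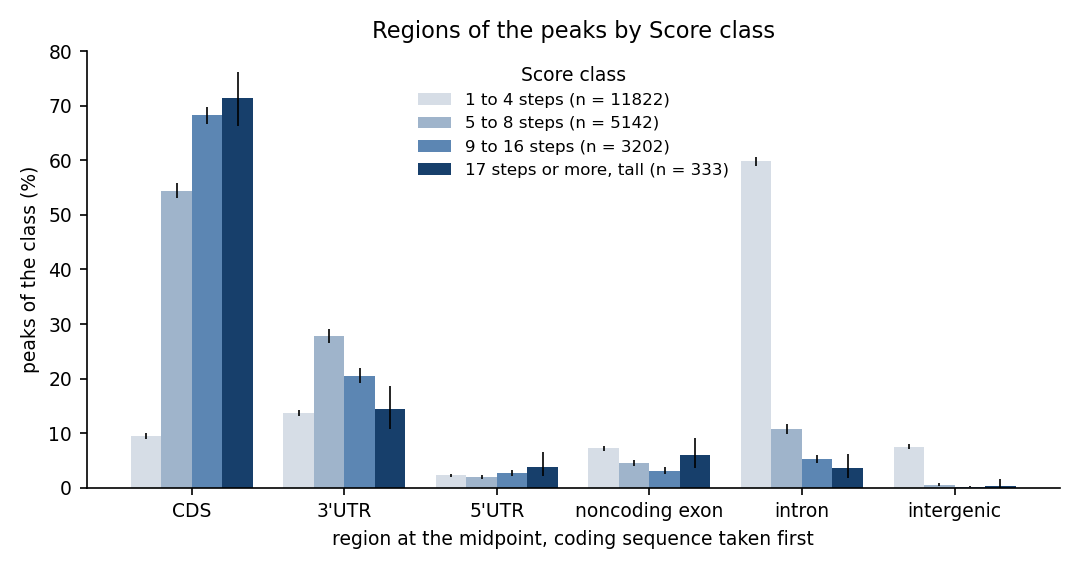
Share of peaks (y axis, %) in each region (x axis, coding sequence taken first) for the 4 Score classes, with 95% binomial intervals as bars. The coding share rises from the lowest class to 71.5% of the 333 tall peaks, and the intron share falls to 3.60%.

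The highest of the tall peaks had a different make-up. Of the 152 peaks of 17 to 19 steps 73.0% were coding, of the 94 of 20 to 25 steps 81.9%, and of the 87 of 26 steps or more 57.5%, where MALAT1 put 20.7% in noncoding exons together with 1 NUCB2 peak. The 152 lowest came from 93 genes and the 87 highest from 23. The implied background rose along with height, with medians of 0.720, 0.998 and 2.00.

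The tall coding peaks were set against the exon of 1 representative transcript per gene. Exons were short, with a median of 184 nt for 236 peaks, and the midpoint was 49 nt from the nearest exon end (39 to 56), close to the 51 nt of peaks of 9 to 16 steps. A marked asymmetry appeared at the exon ends. The peak ran past the 3' end of its exon, over the 5' splice site into the next intron, in 127 of 236 tall coding peaks (53.8%, interval 47.2 to 60.3), and past the 5' end of the exon in 1 (0.424%, 0.0107 to 2.34). At 9 to 16 steps the first share was 39.6% and at 5 to 8 steps 26.1%, so that it was larger in tall peaks by more than counting error. Coding peaks also differed in length, with medians of 109 nt when tall, 83 nt at 9 to 16 steps and 69 nt at 5 to 8. A longer peak reaches past an exon end more easily, and these shares were not adjusted for length. Peak callers of this kind extend reads in genome coordinates, so a read that ends at a splice site can be drawn into the intron. The part of this in these shares was not tested. The part past the exon end was short, with a median of 29 nt, and in 125 of the 127 peaks it was no longer than 48 nt, the length of the shortest peak in the list. The capitals in the HMGB2 and NCL sequences above are such parts, and each opens with GT, the start of an intron. The RPS24 peak, with 52 nt, was 1 of the 2 exceptions.

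**Figure D4:**
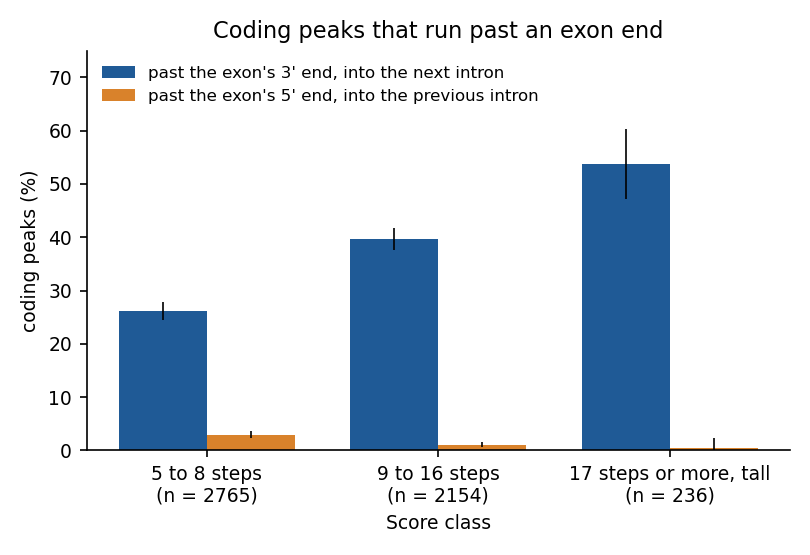
Share of coding peaks (y axis, %) that ran past the 3' end of the exon (blue) or past its 5' end (orange) in 3 Score classes (x axis), with 95% binomial intervals as bars. The blue bars stand at 26.1%, 39.6% and 53.8%, and the orange ones do not exceed 2.89%.

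Most of the 12 tall intron peaks also lay across the 3' end of an exon. Their median length was 56.5 nt, and 10 of the 12 held the 3' end of an exon of the same gene, among them the CPSF6, NUCB2 and ANP32B peaks. Here exons of any annotated transcript counted, not only those of the representative one. The CENPF peak, 319 nt long, held the 5' end of an exon as well. Only the peaks in EIF2S3 and DLEU2 touched no exon. The EIF2S3 peak, in an intron of a translation initiation factor subunit (chrX:24074369-24074644), was 276 nt long, had 4 copies of UGUA, a Score of 4.33 and an FDR of 0.0214, and was the only intron peak of the list below 0.05.

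Copies of UGUA on the gene strand were then counted in the 303 tall exonic peaks that had genes on 1 strand only. It occurred in 97 of them (32.0%, interval 26.8 to 37.6), against 25.5% of peaks of 9 to 16 steps, which were shorter (median 83 nt against 108 nt). Per length there was no such difference, with 3.39 copies per kb (2.85 to 4.0) in tall exonic peaks and 3.37 in those of 9 to 16 steps. Density depended on the region instead. In tall 3'UTR peaks it was 6.65 per kb (4.89 to 8.85), against 6.53 at 9 to 16 steps and 8.43 (7.58 to 9.36) in the 3'UTRs of the same genes outside every peak. That last value comes from 1 transcript per gene, and the parts of tall peaks within the same 3'UTRs had 7.06 per kb (5.11 to 9.51), an interval that overlapped it. In tall coding peaks it was 2.84 per kb (2.29 to 3.49). With the parts past the exon ends left out it was 1.96 per kb (1.46 to 2.56), against 2.14 (1.94 to 2.35) in the coding sequence of the same genes outside peaks. The tall peaks with most copies were 3'UTR peaks of ANP32B (7), HMGB2 and HSP90B1 (6 each) and SRSF2 (4), and a coding peak of CCDC59 (4). These are counts over whole peaks. In CCDC59 3 of the 4 copies lay within the coding sequence, and the HSP90B1 copy shown above overlaps the stop codon.

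A single coding peak could hold both motifs. The CCDC59 peak in exon 2 of 4 (chr12:82356949-82357235, minus strand, Score 4.55) is shown with UGUA, written TGTA, in capitals. Of its 4 UGUA copies, 3 lie within the coding sequence, and the last lies past the exon end. The peak also holds 2 copies of GAAGAA.
CCDC59: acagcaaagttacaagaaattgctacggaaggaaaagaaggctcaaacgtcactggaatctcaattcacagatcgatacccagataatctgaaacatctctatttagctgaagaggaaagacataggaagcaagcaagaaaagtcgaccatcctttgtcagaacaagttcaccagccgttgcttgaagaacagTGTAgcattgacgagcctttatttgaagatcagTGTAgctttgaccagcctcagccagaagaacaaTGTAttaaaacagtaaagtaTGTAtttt

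The purine motif behaved differently. GAAGAA, a string that splicing enhancers often contain and that reads as 2 glutamate codons in frame, occurred 3.78 times per kb in tall coding peaks (3.14 to 4.52), against 2.22 at 9 to 16 steps, 1.99 at 5 to 8 and 0.720 at 1 to 4. Within the coding sequence it was 4.35 per kb (3.60 to 5.21) under tall peaks and 2.48 (2.27 to 2.72) in the same genes outside peaks. The excess was concentrated: of 118 copies, 45 (38.1%) were in HSP90B1, HSP90AA1, NUCB2, HSP90AB1 and SON. Without these 5 genes the densities were 3.35 (2.62 to 4.21) and 2.52 (2.29 to 2.75). These intervals overlapped, so without those 5 genes the excess over coding sequence outside peaks was not resolved. By height the GAAGAA density was 2.38 per kb in coding peaks of 17 to 19 steps, 2.80 at 20 to 25 and 9.11 at 26 or more. At that last height the same 5 genes supplied 38 of the 54 copies. Without them, an alternative chosen after seeing the data, the values were 2.16 (1.44 to 3.12), 2.98 (2.03 to 4.23) and 6.72 (3.84 to 10.9), the last from 22 peaks with 16 copies. The HSP90AA1 peak in exon 5 of 11 (Score 10.02) held 9 copies, and peaks of HSP90B1 held 7 and 6.

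**Figure D5:**
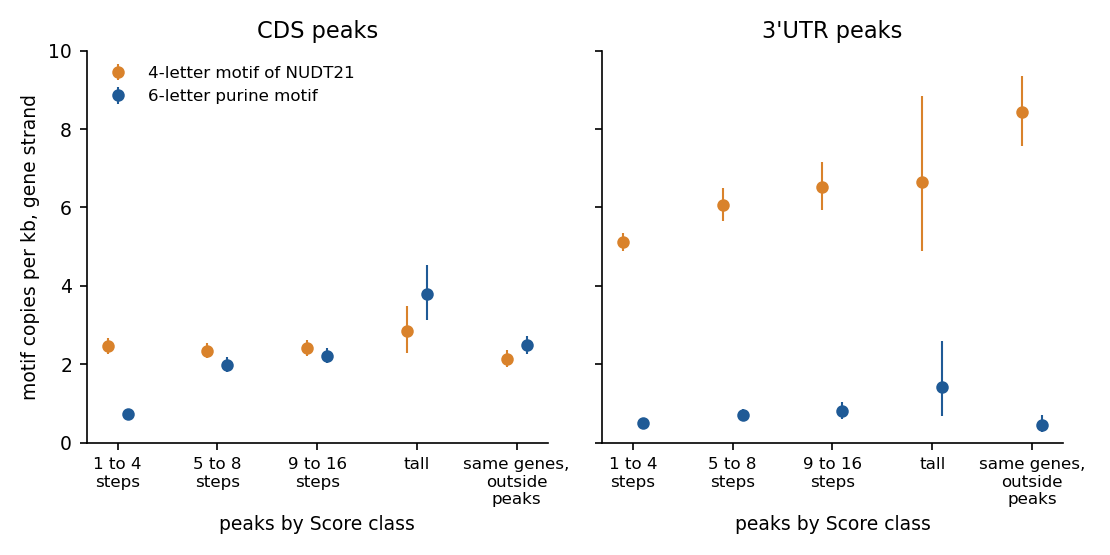
Copies per kb on the gene strand (y axis) of UGUA (orange, the motif known for NUDT21) and GAAGAA (blue, the purine motif) in coding and in 3'UTR peaks of 4 Score classes and in the same genes outside peaks (x axis), with exact Poisson 95% intervals as bars. In coding peaks the blue points rise to 3.78 while the orange points stay between 2.35 and 2.84, and in 3'UTRs the interval around the orange point of tall peaks, 6.65, overlaps that around the point outside peaks, 8.43.

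Beside UGUA, all 256 strings of 4 letters were compared between tall peaks and the same genes outside peaks. Within coding sequence UGUA ranked 136 of 256 with a ratio of 0.91, and GUAG led with 2.58. GUAG occurred under the tall peaks of 37 of 103 genes, and 5 of them (PNN, MKI67, SON, LUC7L3 and PRPF38B) held 47.9% of its 117 copies. Without these 5 genes, an alternative chosen after seeing the data, its density under tall peaks was 2.999 per kb (2.294 to 3.853). In the coding sequence outside peaks it was then 1.601 (1.424 to 1.794), and the intervals did not overlap. In 3'UTRs UGUA ranked 182 with a ratio of 0.85. The leading strings there were UCGG at 4.45, from 7 copies under tall peaks, and CCCC at 4.03, from 53. How these copies were spread over genes was not counted.

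Gene by gene, the picture was weaker than in the pool. Over 102 genes with at least 100 nt of coding sequence outside their peaks, adenine was more frequent under the tall peaks in 69 (67.6%, interval 57.7 to 76.6), with a median difference of 3.20 percentage points, whereas purines were more frequent in 58 (56.9%, 46.7 to 66.6) and GC in 48 (47.1%, 37.1 to 57.2), which included an even split. GAAGAA was denser under the tall peaks in 34 genes and sparser in 59, and UGUA denser in 27 and sparser in 61. The tall stretches are short and often hold no copy of a motif at all, so these counts lean to the sparser side. In the pooled coding frames, glutamate codons made up 11.8% under tall peaks and 9.29% outside, lysine 10.3% and 8.0%, arginine 8.56% and 6.08%, and serine 9.90% and 8.30%, while leucine was lower, at 5.97% and 8.33%. Those intervals did not overlap, but genes are not independent replicates and a few genes supply many of the codons. The glutamate codon GAA stood at 7.18% and 5.06%. For the other glutamate codon, GAG (4.61% and 4.23%), and for aspartate (5.86% and 5.53%) the intervals overlapped.

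The 48 peaks in 3'UTRs, with coding sequence first, were led by HMGB2 (8.20), PTMA, STMN1 and RPS24 (7.74 each), HSP90AB1 (7.06) and SRSF2 (6.83). For the 44 on the representative transcript, the median distance to the transcript end was 840 nt, against 1533 nt at 9 to 16 steps, in 3'UTR exons of 1580.5 nt and 3110 nt. Within the last 150 nt, where poly(A) signals and the cleavage site lie, stood 4 of the 44 (9.09%) and 5.11% of those at 9 to 16 steps, a difference not detectable with 44 peaks. The RPS24 peak was 18 nt from the end and the CALR peak 96 nt. The 13 tall peaks in 5'UTRs were led by HMGB1 (8.88), HMGB2 (8.65) and NUCB2 (7.06), and had a median GC content of 70.4% and 1 UGUA in all. Outside MALAT1, tall peaks in noncoding exons were those of NUCB2 (8.20), the cytoplasmic noncoding RNA NORAD (4.55) and a gene known only as ENSG00000289901 (4.10).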

How the data were processed

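J-Gamma1 eCLIP was deposited as 1 peak list for the NUDT21 antibody library. According to the methods, the authors trimmed reads with fastp, removed duplicates by molecular identifier, removed rRNA, mapped to hg38 and called peaks with MACS2, keeping 1 read per position (keep-dup 1) with local backgrounds over 1000 and 10000 nt and a q-value limit of 0.05. The deposited list does not keep to that limit: 19 of its 20499 peaks had an FDR below 0.05, while every p-value in it was at most 0.0500. The aligner, the treatment of reads that match several places and any use of the input in peak calling are not given in the sources used here. The deposited Score was treated as a pileup signal, since its scaling is not stated. The deposited fold enrichment is a ratio to a local background, and the deposited p-value and FDR came from the peak caller. The list gave neither strand nor read counts, so the depth is unknown and intervals (95%, exact Clopper-Pearson for shares, exact Poisson for densities, exact order statistics for medians) cover counting error over peaks or letters only.

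Peaks with a Score of at least 3.8 were kept. Each was assigned by its midpoint to GENCODE 44 genes, in the order 3'UTR, 5'UTR, coding sequence, noncoding exon, intron, with coding sequence first and 1 canonical transcript per gene as alternatives. The strand was that of the gene. Sequences were read from hg38, UGUA and GAAGAA were searched as written on the gene strand with overlapping copies counted, and the 16 tall exonic peaks whose midpoint was assigned to genes on both strands were left out of motif counts. Other Score limits, the FDR, merging of peaks and other search windows were tried. Counting and intervals were tested on simulated data. Python 3.11.15, pandas 2.3.3, scipy 1.17.1 and pysam 0.24.0 were used.

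Peak callers of this kind extend each read in genome coordinates, so a read that ends at a splice site can be drawn into the intron, and the part of this in the positions reported was not tested. The members, the gene lists and the rule for named genes were chosen with earlier results of these data known. Named genes were those of the 20 highest peaks, those with 3 or more tall peaks, the 3 highest peaks per region, up to 5 genes per list, genes with an FDR below 0.05, up to 5 peaks with most UGUA or GAAGAA, and NUDT21, CPSF6, CPSF7, UBE2D3, UBE2N, UBE2J1, HMGA1, HMGB2, CDK1, PCNA and MYC. Others were named after their values were seen.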

Additional observations from a re-analysis of the deposited data

Results flagged for a closer look

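A tall peak lay on KI270733.1, a sequence of the genome that is not placed within a chromosome and that carries no gene compared here. The peak is counted among the 333 and as a region of its own. It was 76 nt long, had a Score of 6.15 (27 steps), a fold enrichment of 4.99 and an FDR of 0.218. A lower peak on the same sequence had a Score of 2.28. The input library was not analysed here, so a control level could not be set beside it.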

How the results depend on the processing

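Of 56 alternative values for the main results, 32 stayed near the reported value and 24 moved. Near meant within the interval of the reported value or, for numbers of peaks and genes, which have no interval, within a set fold of it. None could change sign. Raising the limit to 20 steps left 181 tall peaks in 67 genes, with 1.66% in introns, 4.23 GAAGAA per kb in exonic peaks (3.18 as reported) and 15.1% of the listed genes (21.6%). At 25 steps 95 peaks in 26 genes were left, with 28.4% in coding sequence when UTRs came first, 4.30 UGUA and 6.85 GAAGAA per kb, medians of 58.0% purine (55.7%) and 39.9% GC (42.9%), a median of 36 nt to the nearest exon end (56 nt) and 7.76% of the listed genes. An FDR below 0.05 left 19 peaks. With coding sequence first the shares were 71.5% coding and 14.4% 3'UTR, and with 1 transcript per gene 71.2% and 13.2%, with 66.5 nt to the exon end. Coding peaks alone had a median purine content of 57.9%. UGUA was in 24.8% of peaks within the central 100 nt and in 53.8% after extension by 50 nt on each side. Without the 5 genes with most copies, an alternative chosen after seeing the data, exonic GAAGAA was 2.46 per kb. Over single gene lists 44 values were within the error and 8 moved. The causes of these shifts were not tested, beyond the smaller number of peaks at higher limits. No paired analysis was possible because 1 library was analysed and no replicate exists. Depth was unknown, and RNA abundance was not analysed here, so heights were not set against expression.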

Other observations

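One tall peak lay between genes at chr11:10509393-10509447 with a Score of 5.24, 1067 nt from MIR4485, 1814 nt from AMPD3 and 2226 nt from RNF141. The peak assigned to the 5'UTR of MFSD11 (7.74) also covered an exon of SRSF2 on the opposite strand. With coding sequence first this peak counted as coding, and its motifs were read on the strand of MFSD11. In all, 23 tall peaks overlapped an exon of another gene on the opposite strand, 16 of them in MALAT1.

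The implied background of tall peaks was often close to a whole number: it was within 0.02 of 1 in 120 of the 333, of 2 in 28, of 3 in 13, of 4 in 2 and of 5 in 4. A spacing of exactly 476 nt to another peak, found for 31.6% of the peaks of 1 to 4 steps, was found for 2 tall peaks (0.601%).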
